A study of Mus musculus with 9 samples.

Results

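The interleukin 6 axis was followed across 3 groups of cultured mouse bone marrow progenitors through 8 genes: the ligand genes Il6, Osm and Lif, the receptor chain genes Il6ra, Il6st and Lifr, and the signal genes Stat3 and Socs3. The genes were taken by symbol from the array annotation, which gives 1 transcript cluster (a set of probes summarised to 1 value) to each of them, out of 18797 distinct symbols on the array. Marrow came from C57BL/6 females aged 8 weeks that had been given 5-fluorouracil at 150 mg/kg 6 days earlier, a drug that kills dividing cells. Cells enriched for the Lin-Sca+Kit+ phenotype on magnetic columns were transduced by retrovirus, cultured for 72 h, and then sorted by their EGFP signal. The vector was either empty (MIE, which carries EGFP alone), or carried the cDNA of GATA2 wild type or of the GATA2 variant R396Q, with 3 arrays per group. All cells kept their own Gata2 genes, so both GATA2 groups received the cDNA on top of these, protein was not measured, and the promoter in the vector is not given in the labels. The labels call the cells HSC, that is, hematopoietic stem cells, and give the tissue as blood.

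Interleukin 6 is a secreted cytokine that binds its receptor chain, the product of Il6ra, after which the pair engages the signal chain gp130, the product of Il6st. Oncostatin M (Osm) and leukemia inhibitory factor (Lif) also signal through gp130, and leukemia inhibitory factor does so together with the chain made from Lifr. Bound gp130 activates Janus kinases, which phosphorylate STAT3, and SOCS3 is a feedback inhibitor that binds gp130. In bone marrow the family is known for its action on progenitors, megakaryocytes and myeloid cells, and mast cells and macrophages are known sources of interleukin 6.

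The stretches of 250 bases before the RefSeq start of the cytokine gene and of both receptor chain genes that changed most are shown first, because the results turn on these 3 genes. Capitals mark matches to 4 motifs searched on both strands: the GATA words AGATAA and AGATAG and likewise TGATAA and TGATAG, the C/EBP word TTGCNNAA, the NF-kB word GGGA followed by any base and TTTCC, and the STAT word TTCNNNGAA, where N is any base. Sequences are from RefSeq, build GRCm38.p6, each written 5′ to 3′ on the strand of its gene.
Il6, chr5:30012864-30013113, plus strand: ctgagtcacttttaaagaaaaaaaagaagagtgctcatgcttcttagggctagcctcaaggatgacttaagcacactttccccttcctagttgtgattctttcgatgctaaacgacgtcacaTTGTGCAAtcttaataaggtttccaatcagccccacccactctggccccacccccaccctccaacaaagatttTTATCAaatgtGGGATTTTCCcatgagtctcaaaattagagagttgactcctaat
Il6ra, chr3:89913197-89913446, minus strand: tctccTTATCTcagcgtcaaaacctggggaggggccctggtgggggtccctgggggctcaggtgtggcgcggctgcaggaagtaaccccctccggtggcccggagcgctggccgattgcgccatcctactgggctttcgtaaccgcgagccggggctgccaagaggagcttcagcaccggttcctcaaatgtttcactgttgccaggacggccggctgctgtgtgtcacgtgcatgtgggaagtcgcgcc
Il6st, chr13:112463820-112464069, plus strand: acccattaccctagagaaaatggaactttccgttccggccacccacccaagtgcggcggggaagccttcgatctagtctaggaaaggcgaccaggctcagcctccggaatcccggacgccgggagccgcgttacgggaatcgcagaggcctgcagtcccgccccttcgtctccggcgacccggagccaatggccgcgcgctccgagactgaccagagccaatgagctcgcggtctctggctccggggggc

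The Il6 stretch holds 1 GATA match on the opposite strand (TTATCA, 55 to 50 bases before the start), 1 NF-kB match (GGGATTTTCC, 44 to 35 bases before the start) and 1 C/EBP match on the opposite strand (TTGTGCAA, 128 to 121 bases before the start). These 3 matches do not overlap. The Il6ra stretch holds 1 GATA match on the opposite strand (TTATCT, 245 to 240 bases before the start), and no match to the 4 motifs lies in the Il6st stretch. Of 32851 RefSeq stretches of the same length, 26.5% hold a GATA match, 9.56% a C/EBP match, 0.356% an NF-kB match and 7.02% a STAT match. Promoter entries were matched for 7 of the 8 genes. Lifr has 2 entries, of which the second holds 2 GATA matches (TGATAG, 244 to 239 bases before that start, and TTATCA on the opposite strand, 172 to 167 bases before it). Socs3 has 1 STAT match (TTCTTAGAA, 154 to 146 bases before the start), and no match was found for Lif, Stat3 or the first entry of Lifr. A match describes letters, and binding was not measured.

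The 9 arrays had median log2 signals of 6.06 to 6.19, and correlated at 0.989 to 0.995 within groups and 0.971 to 0.992 between groups (Pearson, across clusters, which are not independent replicates). Gata2, the transduced gene, had log2 signals of 9.65 to 9.87 with MIE, 10.94 to 11.50 with wild type and 10.53 to 10.72 with R396Q, and whether its probes read the vector's transcript as well as the cells' own is not given in the labels. Of the stem and progenitor markers, Kit and Cd34 had log2 means of 12.3 and 13.2 with MIE, while genes of neutrophils and monocytes had signal on the same arrays, with summed log2 levels of 18.1 to 19.1 and 16.5 to 17.5. Of 6 measured B and T cell markers, none differed in any comparison (limma, 0 calls in each), and 4 lay below the median of every array. These are bulk samples, in which fewer cells of a type cannot be told apart from less RNA per cell.

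Il6 rose steeply with both forms of GATA2, whereas both chains of its receptor fell with both. Of the 8 genes, 5 passed the test with wild type (3 rose and 2 fell), 3 passed with R396Q (1 rose and 2 fell), and 2 were lower with R396Q than with wild type. Calls are limma tests with a Benjamini-Hochberg adjusted p under 0.05 over all 21072 clusters, and each SE belongs to a log2 difference. Over all clusters the test called 8.99% with wild type against MIE (4.64% up, 4.35% down), 1.23% with R396Q against MIE (0.660% up, 0.569% down) and 5.75% with R396Q against wild type (2.67% up, 3.08% down). Groups were separate, with no shared range, for 6, 4 and 3 of the 8 genes, against 22.6%, 14.1% and 20.6% of all clusters. The first pair of comparisons shares the MIE arrays. A moderated F-test over the 3 groups called Il6, Osm, Il6ra and Il6st, against 8.31% of all clusters, and with the replicate number as a block it also called Stat3, against 17.1%.

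**Figure D1:**
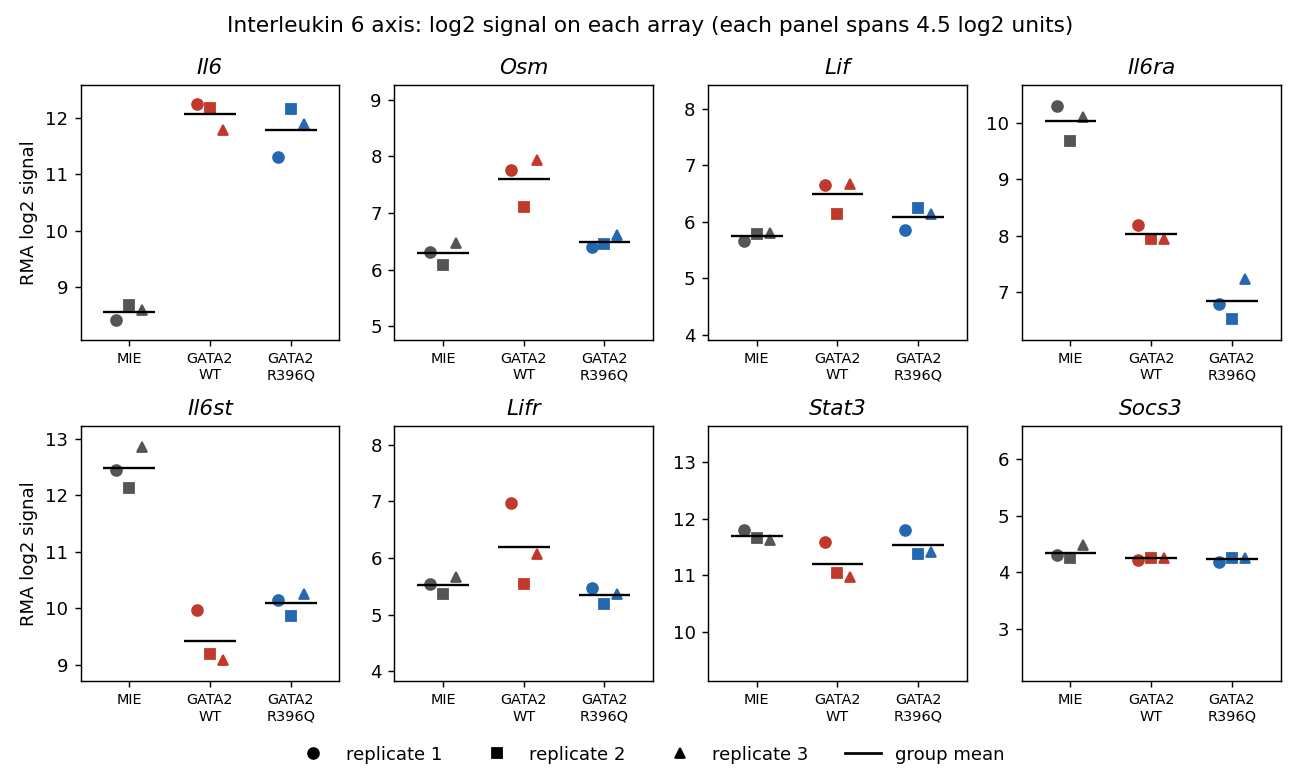
RMA log2 signal (y axis) of the 8 genes on each of the 9 arrays, by group (x axis), with the replicate number as the symbol and the group mean as a line. Every panel spans the same height in log2 units. Il6 lies between 8.42 and 8.68 with MIE and above 11.3 on all 6 arrays with added GATA2, and Il6st moves the opposite way.

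Among the ligands, Il6 had log2 signals of 8.42, 8.68 and 8.60 on MIE arrays 1, 2 and 3. They were 12.24, 12.17 and 11.79 with wild type and 11.31, 12.16 and 11.88 with R396Q. All 6 arrays with added GATA2 lay above all MIE arrays, and the ranges of the GATA2 groups overlapped. Il6 was 11.3-fold higher with wild type than with MIE (log2 difference 3.50, SE 0.23, 95% confidence interval 2.96 to 4.03, limma adjusted p = 0.000393). With R396Q the rise was 9.29-fold (3.22, SE 0.23, interval 2.68 to 3.75, limma adjusted p = 0.00259). Within replicate numbers the rises were 3.19 to 3.81 with wild type and 2.89 to 3.47 with R396Q, higher in 3 of 3 numbers each. Between the GATA2 forms Il6 differed by -0.28 (R396Q minus wild type, SE 0.23, interval -0.81 to 0.25, limma adjusted p = 0.627), and differences inside that interval were not resolved. Both rises kept their call without any 1 array (limma adjusted p up to 0.00306 and 0.0166).

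Markers of mast cells, a known source of interleukin 6, rose in part with wild type, while with R396Q few were called. The summed log2 level of 12 mast cell markers was 14.5 to 15.6 with MIE, 16.8 to 17.4 with wild type and 16.6 to 17.3 with R396Q. Cpa3 made the largest part of this sum, with log2 means of 14.7, 16.4 and 16.7 in that order. Of these 12 markers, 7 rose with wild type, Gata2 included, and 1 rose with R396Q, which was the transduced gene Gata2 itself. With the replicate block 7 rose with wild type and 3 with R396Q, the latter being Gata2, Cpa3 and Slc18a2. Between the forms 5 of the 12 were lower with R396Q and 0 higher (6 and 0 with the block), while Il6 did not differ past the threshold. Ms4a2, a chain of the IgE receptor, rose by 2.96 on the log2 scale with wild type (limma adjusted p = 0.00303), and its difference with R396Q was 0.52 (limma adjusted p = 0.608). The next 3 markers were chosen after their values were seen. Cpa3, a mast cell protease, rose by 1.68 with wild type (limma adjusted p = 0.0472), and its difference with R396Q was 2.00 (limma adjusted p = 0.0802, and 0.0244 with the block). For Slc18a2, a monoamine transporter, and Hdc, which makes histamine, the differences with R396Q were 1.35 and 1.41 (limma adjusted p = 0.0511 and 0.0787, and 0.0259 and 0.0699 with the block). All 3 R396Q arrays lay above all MIE arrays for these 3 markers, and 14.1% of all clusters had separate groups in this comparison, in either direction. For the other markers of the list, Gata2 apart, the ranges of R396Q and MIE overlapped. Mrgprb1, a receptor of connective tissue mast cells, was below the lower quartile of every array. Of 6 basophil markers, 5 rose with wild type and 0 with R396Q (6 and 1 with the block), with summed log2 levels of 15.1 to 16.4, 17.3 to 18.3 and 16.4 to 16.6 in MIE, wild type and R396Q. Macrophages are also a known source of interleukin 6. Of 10 monocyte and macrophage markers none rose, while 5 fell with wild type and 3 with R396Q (6 and 4 with the block). Of 8 stromal and endothelial markers, 1 rose with wild type and 0 with R396Q, also with the block, and 0 fell. Their summed log2 levels were 9.6 to 10.5 with MIE, 9.2 to 10.3 with wild type and 10.1 to 10.8 with R396Q. The part of all these markers in the Il6 result was not tested.

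Osm, a ligand made by activated myeloid cells, was higher with wild type than in the other groups. The log2 signals of Osm were 6.32, 6.09 and 6.47 with MIE, 7.77, 7.11 and 7.94 with wild type and 6.41, 6.44 and 6.60 with R396Q. The wild type arrays lay above the other 6, and the ranges of MIE and R396Q overlapped. Osm rose 2.48-fold with wild type (1.31, SE 0.22, interval 0.80 to 1.82, limma adjusted p = 0.0123). With R396Q the difference from MIE was 0.19 (SE 0.22, interval -0.32 to 0.70, limma adjusted p = 0.800). Against wild type, R396Q gave a 2.17-fold lower level (-1.12, SE 0.22, interval -1.63 to -0.61, limma adjusted p = 0.0302), and lower in 3 of 3 replicate numbers. This last call held only with MIE 2 or wild type 2 as the array left out (of the 9 arrays in turn, limma adjusted p up to 0.109, log2 difference -1.37 to -0.95 over the 9 fits). The call against MIE was lost when the arrays of these 2 groups were fitted alone (limma adjusted p = 0.0646). Of 4 marker lists, the summed erythroid, megakaryocyte and basophil levels were highest with wild type, as Osm was. The summed mast cell level was 16.8 to 17.4 with wild type and 16.6 to 17.3 with R396Q, so these groups overlapped. Of the 12 mast cell and 6 basophil markers given above, 5 and 4 were lower with R396Q than with wild type (6 and 5 with the block). Of 7 erythroid markers 5 rose with wild type, 0 with R396Q, and 5 were lower with R396Q than with wild type, and of 6 megakaryocyte markers the counts were 5, 0 and 4 (5, 1 and 4 with the block). Summed log2 levels in MIE, wild type and R396Q were 10.5 to 11.6, 13.7 to 14.6 and 10.4 to 11.6 for erythroid and 12.6 to 13.8, 16.1 to 16.3 and 13.2 to 14.1 for megakaryocyte markers. The part of these markers in the Osm result was not tested.

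Lif, the ligand that keeps mouse embryonic stem cells undifferentiated in culture, lies next to Osm on chromosome 11 in the RefSeq gene table, with 0 genes between them. Its log2 signals were 5.66, 5.79 and 5.80 with MIE, 6.65, 6.15 and 6.68 with wild type and 5.86, 6.25 and 6.15 with R396Q. Every array with added GATA2 was above every MIE array, the GATA2 groups overlapped, and 4 of the 9 signals were below the median of their array. Lif was 1.67-fold higher with wild type (0.74, SE 0.16, interval 0.35 to 1.13, limma adjusted p = 0.0359). That call held only where wild type 2 or R396Q 1 was the array left out (limma adjusted p up to 0.111 over the 9 fits), and was lost with array weights (limma adjusted p = 0.0680). With R396Q the difference from MIE was 0.34 (SE 0.16, interval -0.05 to 0.72, limma adjusted p = 0.486), and that from wild type -0.40 (SE 0.16, interval -0.79 to -0.02, limma adjusted p = 0.258).

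Among the receptor chains, Il6ra, which binds interleukin 6 itself, stepped down from MIE to wild type to R396Q. Its log2 signals were 10.30, 9.67 and 10.10 with MIE, 8.20, 7.94 and 7.95 with wild type and 6.79, 6.53 and 7.24 with R396Q, and no pair of groups overlapped. Il6ra fell 3.98-fold with wild type (-1.99, SE 0.22, interval -2.52 to -1.47, limma adjusted p = 0.00294) and 8.99-fold with R396Q (-3.17, SE 0.22, interval -3.69 to -2.64, limma adjusted p = 0.00259). Both falls kept their call without any 1 array (limma adjusted p up to 0.0150 and 0.0181). The level with R396Q was 2.26-fold below that with wild type (-1.18, SE 0.22, interval -1.70 to -0.65, limma adjusted p = 0.0277), lower in 3 of 3 replicate numbers. The call between the GATA2 forms was lost without MIE 3, any wild type array, R396Q 1 or R396Q 2 (limma adjusted p up to 0.101, log2 difference -1.37 to -1.01 over the 9 fits).

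Il6st, the gp130 chain shared by most cytokines of the family, fell with both forms. Its log2 signals were 12.45, 12.12 and 12.86 with MIE, 9.97, 9.20 and 9.08 with wild type and 10.15, 9.86 and 10.25 with R396Q. The MIE arrays were above all others by more than 1 log2 unit, and the GATA2 groups overlapped through wild type 1. Il6st fell 8.32-fold with wild type (-3.06, SE 0.28, interval -3.72 to -2.39, limma adjusted p = 0.00146). The fall with R396Q was 5.24-fold (-2.39, SE 0.28, interval -3.06 to -1.72, limma adjusted p = 0.0154), and that call was lost without MIE 1 or any 1 R396Q array (limma adjusted p up to 0.0771, log2 difference -2.56 to -2.20 over the 9 fits). R396Q minus wild type was 0.67 (SE 0.28, interval 0.00 to 1.34, limma adjusted p = 0.282). The mean was lowest with R396Q for Il6ra and with wild type for Il6st, where the GATA2 groups did not differ past the threshold.

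Part of the markers of monocytes and macrophages, cells known for both receptor chains, fell on the same arrays. Of 10 measured markers, 5 fell with wild type and 3 with R396Q (6 and 4 with the block), none rose, and the summed log2 level was 16.5 to 17.5 with MIE, 11.5 to 15.3 with wild type and 14.7 to 16.2 with R396Q. Mrc1, the mannose receptor, fell by 4.62 on the log2 scale with wild type and by 4.75 with R396Q (limma adjusted p = 0.00173 and 0.00707). The next markers of the list were chosen after their values were seen. With wild type, Tgfbi, Sirpa, Csf1r and Fcgr1 had differences of -6.04, -2.38, -3.32 and -2.70 (limma adjusted p = 0.000683, 0.00112, 0.0230 and 0.149). With R396Q these were -3.999, -1.43, -3.11 and -2.67 (limma adjusted p = 0.0150, 0.0284, 0.0886 and 0.318). For each of these genes, all arrays with added GATA2 lay below all MIE arrays. Adgre1, Cx3cr1 and Lyz2 differed less than Mrc1 or the other way. Adgre1, a surface marker of mouse macrophages, had differences of 0.13 with wild type and 1.36 with R396Q (limma adjusted p = 0.935 and 0.377). Cx3cr1, the fractalkine receptor, had differences of 0.37 and -1.01 (limma adjusted p = 0.467 and 0.155). Lyz2, a lysozyme, fell by 4.07 with wild type (limma adjusted p = 0.0110), and its difference with R396Q was -0.43 (limma adjusted p = 0.865). Of 12 neutrophil markers, 5 fell with wild type and 1 with R396Q (10 and 2 with the block), with summed log2 levels of 18.1 to 19.1, 13.7 to 16.1 and 16.9 to 18.7 in MIE, wild type and R396Q. Stem and progenitor markers were split, with 3 of 9 lower and 1 higher with wild type, and 1 lower and 1 higher with R396Q (with the block 4 lower and 3 higher, and 1 and 1). On the same scale Kit fell by 2.81 and 1.81, and Slamf1, a surface marker of stem cells, rose by 3.58 and 3.25, with wild type and R396Q in that order (limma adjusted p of 2.19e-05, 0.000460, 0.00339 and 0.0188). The part of these markers in the receptor results was not tested.

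Lifr, the partner of gp130 for leukemia inhibitory factor, passed no comparison. Its log2 signals were 5.55, 5.36 and 5.67 with MIE, 6.98, 5.55 and 6.07 with wild type and 5.48, 5.19 and 5.37 with R396Q, and 8 of the 9 were below the median of their array. Wild type 1 stood above the rest, and the wild type and MIE ranges overlapped, whereas every R396Q array was below every wild type array. The differences were 0.67 for wild type minus MIE (SE 0.33, interval -0.11 to 1.45, limma adjusted p = 0.299), -0.18 for R396Q minus MIE (interval -0.97 to 0.60, limma adjusted p = 0.892) and -0.86 for R396Q minus wild type (interval -1.64 to -0.07, limma adjusted p = 0.237).

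**Figure D2:**
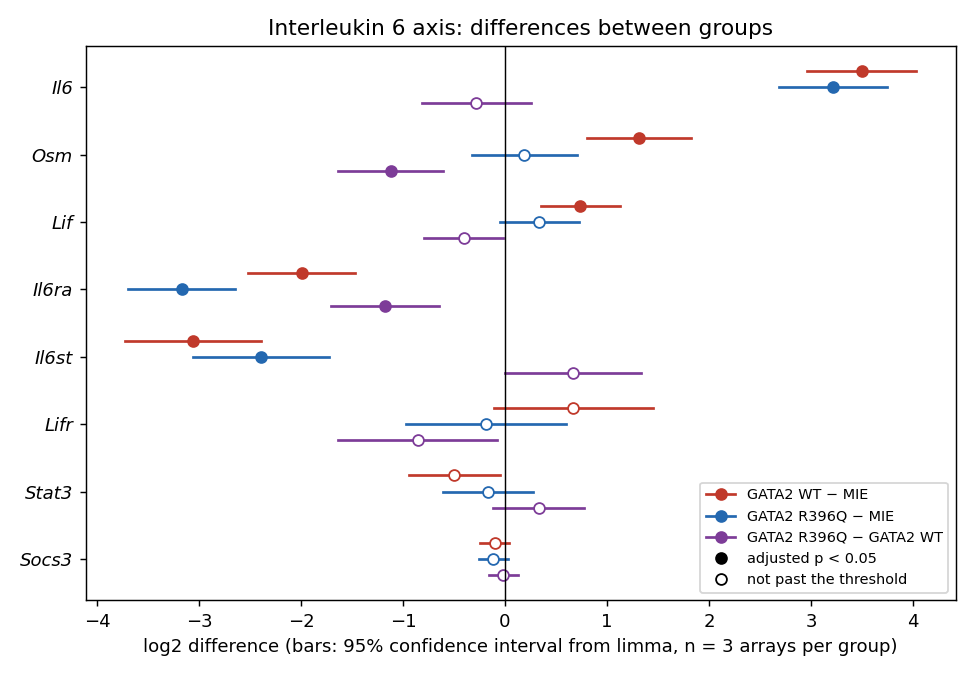
Log2 differences (x axis) between the groups for the 8 genes (y axis), with 95% confidence intervals from limma as bars and filled points for an adjusted p under 0.05. The intervals of Il6 lie wholly above 2.6 and those of Il6ra wholly below -1.4 in both comparisons with MIE, while the differences of Socs3 lie within 0.12 of 0.

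Of the signal genes, Stat3, the main transcription factor downstream of gp130, was slightly lower with wild type in a fit that used the replicate numbers. Its log2 signals were 11.80, 11.66 and 11.63 with MIE, 11.59, 11.04 and 10.97 with wild type and 11.80, 11.38 and 11.41 with R396Q. The wild type arrays lay below the MIE arrays, and R396Q overlapped both. The difference was -0.50 for wild type minus MIE (SE 0.19, interval -0.94 to -0.05) and did not pass the test (limma adjusted p = 0.178). With the replicate block the same difference passed (SE 0.10, limma adjusted p = 0.0264), and it also passed without wild type 1 (-0.69, limma adjusted p = 0.0436). With the block, 6 of the 8 genes passed in this comparison (3 rose and 3 fell), against 17.4% of all clusters (8.00% up, 9.41% down). R396Q differed from MIE by -0.17 (interval -0.61 to 0.28, limma adjusted p = 0.801) and from wild type by 0.33 (interval -0.11 to 0.77, limma adjusted p = 0.452).

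Socs3, the feedback inhibitor that STAT3 induces, was below the lower quartile of every array. Its log2 signals were 4.30, 4.26 and 4.48 with MIE, 4.23, 4.26 and 4.26 with wild type and 4.18, 4.26 and 4.26 with R396Q, with 5 distinct values among the 9. A signal above background is not shown at this level, so its differences from MIE of -0.10 and -0.11 (limma adjusted p = 0.397 and 0.517) set no bound on change in its RNA.

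The other genes of the pathway were taken from 7 lists, of which 91 of 101 genes were measured by a cluster with 1 symbol. With wild type 19 of 91 passed (7 rose, 12 fell), with a median log2 difference of -0.07 against -0.01 over all clusters and 8.99% of clusters called. With R396Q 1 of 91 passed, against 1.23% of clusters, and the median was -0.06 against -0.01. Between the forms 9 of 91 passed (6 higher and 3 lower with R396Q), against 5.75%, with a median of 0.04 against 0.00. With the replicate block 33, 5 and 19 passed, against 17.4%, 3.00% and 13.1% of clusters. With R396Q all 5 were lower (1.34% of clusters down, 1.66% up), and between the forms 12 were higher and 7 lower (7.10% and 5.95% of clusters). An unadjusted p under 0.05 was found for 36, 18 and 26 of the 91, and for 22.1%, 12.1% and 17.7% of clusters.

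None of the 7 other ligands of the family passed in any comparison (limma, with 1, 0 and 1 at an unadjusted p under 0.05 for wild type with MIE, R396Q with MIE and R396Q with wild type). Ebi3, a subunit of heterodimeric cytokines, had the smallest p with wild type (-0.54, SE 0.20, limma adjusted p = 0.165), and was below the lower quartile on 6 of 9 arrays. Clcf1, a ligand of the ciliary neurotrophic factor receptor, had a difference of -0.20 in that comparison (limma adjusted p = 0.495). None of 4 other receptor chains passed either, with 0 at an unadjusted p under 0.05 in each comparison. Osmr, the oncostatin M receptor chain, lay below the median of all 9 arrays and differed by 0.27 with wild type (SE 0.24, limma adjusted p = 0.577). The chain for interleukin 31, Il31ra, differed by 0.34 (SE 0.16, limma adjusted p = 0.279), and the cluster of Cntfr held 1 value on all 9 arrays.

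Among the kinases and adaptors, wild type raised 3 of 11 and lowered 0, against 4.64% and 4.35% of clusters, with a median of 0.22. With the replicate block 5 rose and 0 fell, against 8.00% and 9.41% of clusters. Jak2, the kinase of erythropoietin and thrombopoietin receptors that gp130 can also use, had log2 signals of 10.57, 10.65 and 10.23 with MIE, 12.51, 12.18 and 11.81 with wild type and 10.59, 10.81 and 10.62 with R396Q. The wild type arrays lay above the others. Jak2 rose 3.21-fold with wild type (1.68, SE 0.19, limma adjusted p = 0.00323) and its level with R396Q was 2.81-fold below that with wild type (limma adjusted p = 0.00686), and both calls held without any 1 array. Gab2, a docking protein of cytokine receptors, rose 2.14-fold with wild type (SE 0.19, limma adjusted p = 0.0145), and its difference with R396Q was 0.62 (SE 0.19, limma adjusted p = 0.234). Jak1, the kinase most used by gp130, was 1.18-fold higher with wild type (limma adjusted p = 0.0386). With 1 array left out that call held only without MIE 2 or wild type 3 (up to 0.111). It held in 4 of 10 other settings of the analysis (limma adjusted p up to 0.277). With R396Q 0 of 11 passed against MIE in limma, also with the block, and 3 had an unadjusted p under 0.05. Between the forms Jak2 was the 1 gene of the list that passed (2 with the block, both lower with R396Q). The erythroid and megakaryocyte sums given beside Osm were highest with wild type, as Jak2 was. The mast cell sums of wild type and R396Q overlapped. The part of these markers in the Jak2 result was not tested.

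Inhibitors of JAK and STAT signals moved both ways. Of 18, 3 rose and 3 fell with wild type, against 4.64% and 4.35% of clusters, with a median of -0.03. With the block 3 rose and 5 fell, against 8.00% and 9.41% of clusters. Ptprc, which encodes the leukocyte phosphatase CD45, had log2 signals of 12.07, 11.99 and 12.02 with MIE, 10.41, 10.24 and 10.25 with wild type and 11.20, 10.94 and 11.09 with R396Q. No pair of groups overlapped, with R396Q between the others. It fell 3.31-fold with wild type (SE 0.08, limma adjusted p = 0.000121) and 1.93-fold with R396Q (SE 0.08, limma adjusted p = 0.00394), and was 1.71-fold higher with R396Q than with wild type (limma adjusted p = 0.00248). Ptprc was the 1 pathway gene that passed with R396Q against MIE.

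Also with wild type, the phosphatase gene Ptpn1 fell 1.89-fold (SE 0.13, limma adjusted p = 0.00782). Ubash3b, a phosphatase that dampens tyrosine kinase signals, rose 1.84-fold (SE 0.11, limma adjusted p = 0.00403) and its level with R396Q was 1.85-fold below that with wild type (limma adjusted p = 0.00527). Socs1, a relative of Socs3 that binds Janus kinases, rose 1.71-fold (SE 0.12, limma adjusted p = 0.00941), from a level below the median of 8 of 9 arrays. The other calls of the list, chosen after their values were seen, were Ptpn6, the phosphatase SHP-1, which fell 2.42-fold (limma adjusted p = 0.0191), and Socs4, higher by 0.30 (limma adjusted p = 0.0202). The call of Ptpn6 was lost without MIE 1, MIE 3 or wild type 3 (up to 0.0650 in limma), and Socs4 lost its call without MIE 1, wild type 1 or wild type 3 (up to 0.0670). Socs4 was also lower with R396Q than with wild type (-0.26, limma adjusted p = 0.0482). With 1 array left out that call held only without R396Q 3 (up to 0.151). It held in 3 of 10 other settings of the analysis (limma adjusted p up to 0.204).

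Of the 3 genes for shedding of receptors from the cell surface, Adam10 was 1.55-fold higher with wild type (SE 0.15, limma adjusted p = 0.0414). That call held only where MIE 3 or wild type 2 was left out (up to 0.125). Adam17, the other main sheddase of the interleukin 6 receptor, had a difference of 0.80 between R396Q and wild type (SE 0.19, limma adjusted p = 0.0602). With the block all 3 genes passed between the GATA2 forms, against 13.1% of clusters. Adam17 was higher with R396Q, and Adam10 and Rhbdf2 were lower (limma adjusted p = 0.0252, 0.0339 and 0.0177). Without the block 0 of 3 passed, and 3 had an unadjusted p under 0.05.

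Of 19 genes known to regulate Il6 RNA, 3 fell and none rose with wild type, against 4.35% and 4.64% of clusters, the median being -0.26. Under the block 7 fell and 0 rose, against 9.41% and 8.00% of clusters. With R396Q limma called 0, and 0 under the block too (median -0.22, 5 at an unadjusted p under 0.05). Rel, an NF-kB subunit, had log2 signals of 11.24, 11.97 and 11.25 with MIE, 9.65, 9.77 and 9.14 with wild type and 11.41, 11.42 and 11.54 with R396Q. The wild type arrays lay below the others, and the ranges of MIE and R396Q overlapped. Rel fell 3.91-fold with wild type (SE 0.24, limma adjusted p = 0.00382) and was 3.83-fold higher with R396Q than with wild type (limma adjusted p = 0.00563). Cebpd, a C/EBP factor, fell 2.62-fold with wild type (SE 0.14, limma adjusted p = 0.00191), and Arid5a, which stabilises Il6 RNA, fell 1.63-fold (SE 0.10, limma adjusted p = 0.00770). Cebpd and Creb1 were higher with R396Q than with wild type by 0.74 and 0.81 (limma adjusted p = 0.0257 and 0.0407). These calls were lost without wild type 1, wild type 3 or any R396Q array for Cebpd (up to 0.0873), and for Creb1 in every such fit but the one without wild type 1 (up to 0.131).

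Of 29 genes that STAT3 is known to induce, 6 fell and none rose with wild type, and the median was -0.40. Over all clusters 4.35% were called down and 4.64% up. Under the block 11 fell and 1 rose, against 9.41% and 8.00% of clusters. Csf3r, the receptor of granulocyte colony-stimulating factor, had log2 signals of 11.46, 11.39 and 10.96 with MIE, 6.17, 5.68 and 6.05 with wild type and 9.77, 9.22 and 8.16 with R396Q. No pair of groups overlapped, and the 3 wild type signals were below the median of their arrays. Against that dim level Csf3r fell 39.4-fold with wild type (SE 0.39, limma adjusted p = 0.000621). It was 8.46-fold higher with R396Q than with wild type (limma adjusted p = 0.00661). Csf3r is also in the neutrophil list, which fell as given above. The part of that list in the falls of Csf3r and of the genes named next was not tested. Hp, the acute phase protein haptoglobin, fell 18.9-fold (SE 0.64, limma adjusted p = 0.00891), and Lrg1 fell 3.34-fold (SE 0.36, limma adjusted p = 0.0278), a call lost without MIE 1, MIE 3, any wild type array or R396Q 2 (up to 0.0926). Bcl6 and Batf, chosen after their values were seen, had log2 differences of -0.63 and -0.84 (limma adjusted p = 0.0380 and 0.0495), and lost their calls in 7 and 8 of the 9 fits without 1 array. With the block Bcl6 did not pass (limma adjusted p = 0.0610).

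Myc, a growth factor response gene, fell 2.45-fold with wild type (SE 0.18, limma adjusted p = 0.00733) and was 2.45-fold higher with R396Q than with wild type (limma adjusted p = 0.0101). With R396Q against MIE 0 of 29 passed in limma (0 up and 3 down with the block), 6 had an unadjusted p under 0.05, and the median was -0.18. Csf3r and Bcl6, which encodes a transcriptional repressor, had the smallest p there, with differences of -2.22 and -0.78 (limma adjusted p = 0.0545 and 0.0568). With the block Csf3r passed (limma adjusted p = 0.0390). Between the forms 2 of 29 were higher with R396Q and none lower, against 2.67% and 3.08% of clusters. With the block these counts were 6 and 0, against 7.10% and 5.95%.

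**Figure D3:**
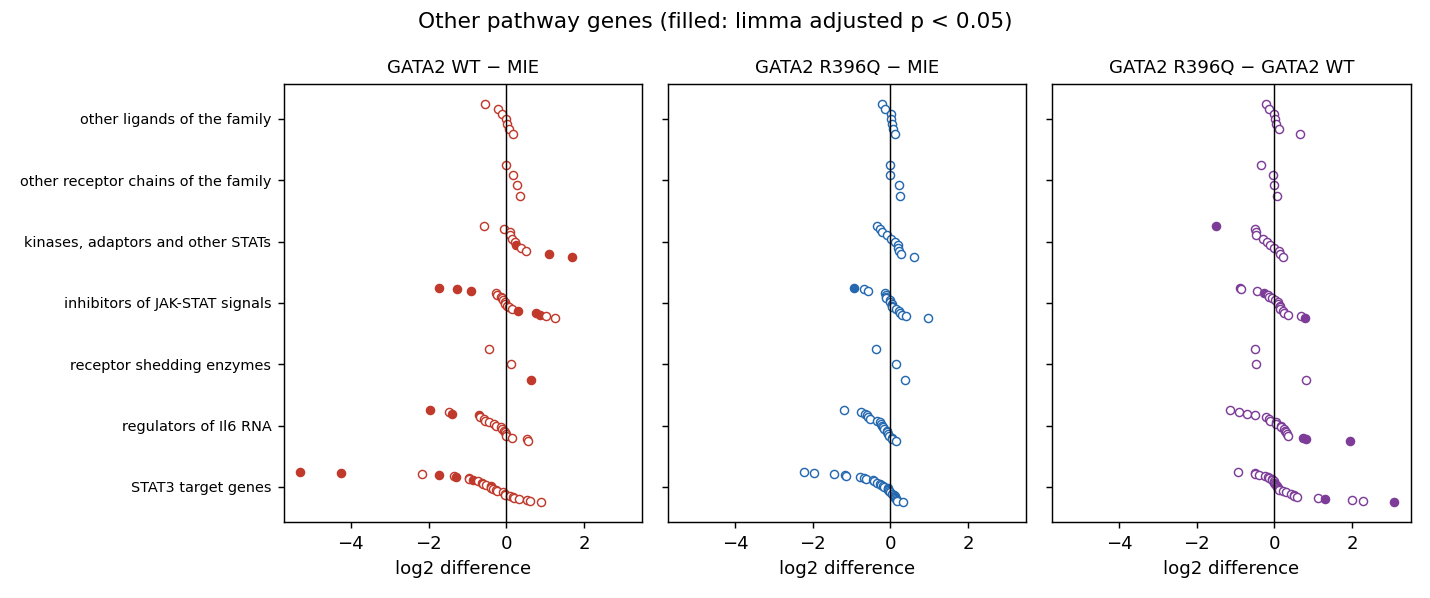
Log2 differences (x axis) of the 91 other pathway genes, by list (y axis) and comparison (panels), with filled points for a limma adjusted p under 0.05. With wild type 7 genes are filled to the right and 12 to the left, with R396Q against MIE 1 is filled, and the ligands and receptor chains at the top hold no filled point.

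Genes whose 9 signals followed those of a member most closely were found by the root mean square difference of the log2 values after removing each gene's own mean, among 18793 other genes, for the 4 genes called by the F-test. All comparisons rest on the same 9 arrays. Nearest to Il6 were P2rx1, an ATP-gated channel of platelets and mast cells (difference 0.34), Hgf, hepatocyte growth factor (0.36), and Prkca, a protein kinase C (0.44), against a spread of Il6 itself of 1.60. Nearest to Osm were Ccl4, a chemokine (0.09), Gnaz, a G protein of platelets (0.10), and Ddah2 (0.11), against a spread of 0.62, and Lif, its neighbour on the chromosome, was at 0.34. Nearest to Il6ra were Lpl, lipoprotein lipase (0.48), the myeloid lectin gene Clec4a3 (0.50) and the inhibitory receptor gene Pirb (0.51), against a spread of 1.33. Nearest to Il6st were Rassf4 (0.26), Tlr8, a receptor for RNA in endosomes (0.27), and Cd180, a relative of the Toll-like receptors (0.32), against a spread of 1.35.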

How the data were processed

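Values are the log2 signals that the authors deposited for each cluster. The submitters' processing notes name Affymetrix Expression Console and RMA (robust multiarray average). The genome build and software versions were not given in the sources used here. Cluster names are of a later array type than the Mouse Exon 1.0 ST that the labels give. All 9 columns were used and 0 left out.

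Symbols came from the array annotation, updated by gene identifier (418 changed). Of 21072 clusters 18992 had 1 symbol, and where a symbol had several the highest mean over 9 arrays was taken. The test was limma 3.58.1 in R 4.3.3 over all 9 arrays with 1 mean per group (6 residual and 0.956 prior degrees of freedom), 2-sided. It was adjusted by Benjamini-Hochberg over all clusters within each comparison. The code was also run on data simulated with independent arrays, which does not cover the shared deviations of replicate numbers given below. Expression was not filtered. The members, lists and tests were chosen with earlier results of these data known.

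Named genes were the 8 members, and up to 4 called genes per list and comparison with the smallest p (up to 2 where none was called). The 3 nearest genes to each member called by the F-test were also named. The plan allowed at most 4 markers per list. More were named for the mast cell list and for the monocyte and macrophage list. Marker lists were written from general knowledge. Some genes stand in 2 lists (Itga2b, Csf3r). A summed level is the log2 of the sum of linear signals.

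Arrays with the same replicate number in different groups deviated from their group means together (9 pairs, r = 0.451 to 0.693, against -0.537 to -0.0900 for 18 other pairs). The numbers were therefore used as a block in a paired alternative. The labels do not say what arrays of one number share, nor whether samples came from separate mice or cultures, so a p-value reflects the spread among these arrays, which may be technical. Precision is limited by having 3 arrays per group.

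Alternatives were the replicate block, the 2 groups compared alone, trend and robust options, array weights, median subtraction, quantile normalization, a filter on the dimmest 30% or 50% of clusters, a filter on clusters with under 6 distinct values, averaging all clusters of a symbol, and omission of each array in turn.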

Additional observations from a re-analysis of the deposited data

How the results depend on the processing

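Of 225 values of single members under other settings, 218 kept their direction and their side of the threshold, 5 lost and 1 gained a call, and 1 changed sign. Of 216 with 1 array left out, 190 did, 24 lost and 1 gained a call, and 1 changed sign. The sign changes were those of Socs3 between R396Q and wild type (0.0389 after median subtraction, -0.0275 to 0.0118 with an array left out), which was below the lower quartile throughout. The replicate block changed the call of Stat3 and of no other member. With it 3667, 632 and 2750 clusters and 33, 5 and 19 pathway genes were called for wild type with MIE, R396Q with MIE and R396Q with wild type, in place of 1894, 259 and 1211 clusters and 19, 1 and 9 genes. Fits on only the 2 groups compared called 1026, 94 and 772 clusters, 3 members and 11 pathway genes with wild type, and 0 members between the forms (limma, 2 at an unadjusted p under 0.05). The 1 pathway gene called with R396Q became 2 with trend and robust options, 4 after median subtraction, 3 after quantile normalization, 3 without the dimmest 30% or 50% of clusters, and 4 without clusters of fewer than 6 distinct values. With 1 array left out, 85 to 304 clusters and 1 to 3 pathway genes were called for R396Q with MIE, and 650 to 1153 clusters and 0 to 2 members between the forms. Scaling moved the median of all clusters by less than 0.1. Dim signals of Socs3, Lifr and Lif limit what their differences show.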
